A study of Mus musculus with 50 samples.

Results

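The genes described here encode the forkhead (Fox), Sox and Zic transcription factors, which were followed in mouse embryos from the 1-cell to the late 2-cell stage. They were taken by name, as the protein-coding rows of the expression table whose symbol is Fox, Sox or Zic with its usual letter and number, and no expression value was used to choose them. This gave 68 of 35750 genes: 44 Fox, 19 Sox and 5 Zic genes. The study asked what the homeobox factor DUXBL does to early embryos. Wild-type C57BL6/J embryos came from superovulated females of 3 to 12 weeks mated with C57BL6/J males. At 24 h after hCG, the hormone given to induce ovulation, they were injected at the 1-cell stage with 200 ng/ul of mRNA. The Duxbl groups received mRNA for V5-tagged DUXBL joined through a 2A peptide to nuclear mCherry. The mCherry groups received mRNA for nuclear mCherry alone, and other embryos were left uninjected. Embryos were collected at late 1-cell (28 to 30 h after hCG), early 2-cell (32 h) and late 2-cell (48 h), and each library was made from a tube of 5 pooled embryos. Uninjected and mCherry embryos gave 6 libraries at each stage, and Duxbl embryos gave 4, 5 and 5.

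Fox proteins bind DNA through a winged-helix domain, and members such as FOXO1 and FOXO3 are held in the cytoplasm when insulin signalling through AKT phosphorylates them. Sox proteins bend DNA through an HMG box and often act together with Pou factors, as SOX2 does with OCT4 in pluripotent cells. Zic proteins are zinc finger factors related to the Gli family and are known from neural, neural crest and left-right development. In mouse embryos the fertilised egg starts with transcripts stored in the oocyte. Most of these are degraded during the 2-cell stage while the embryo's own genes are switched on.

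Levels are given in the usual unit CPM, here the deposited value relative to its library's total after trimmed-mean scaling across all 50 libraries. Differences were tested with limma on log2(CPM + 1), on which changes of low genes come out too small. A gene is said to rise or fall, or to be called, where its Benjamini-Hochberg adjusted p over all genes tested is under 0.05. The deposited totals ran from 12044838 to 26956849 per library, but the authors had scaled the values, so true read depth is unknown. The Duxbl1 row, which counts the injected message too, stood at 1410 to 4799 CPM in the 14 Duxbl libraries and at 82.4 to 635 CPM in the 36 others. The Duxbl late 2-cell library numbered 4 stood somewhat apart, with a median correlation of 0.839 with its group against 0.875 to 0.893 for the other 4. A level is a share of the RNA of 5 embryos, so fewer expressing cells and less RNA per cell cannot be told apart.

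In uninjected embryos the Fox family made up most of the signal of the 3 families. At late 1-cell the 44 Fox genes summed to 2226 ± 185 CPM (SD, n = 6), the Sox genes to 64.3 ± 10.4 CPM and the Zic genes to 2.12 ± 1.26 CPM. Fox signal was concentrated, with 84.8% of the sum in 5 genes. Foxo1, of the insulin-regulated FOXO group, was at 556, 636 and 710 CPM (lowest, median and highest library). Foxj3 was at 426, 457 and 592 CPM. Per kilobase of exon, so that genes can be compared, Foxo1 led with 72.9 ± 6.92 CPM per kb, ahead of Foxj3 at 43.4 ± 5.70 and Foxo3 at 35.7 ± 4.70. Among Sox genes Sox15, the single member of group G, led with 21.7 ± 8.87 CPM per kb, and Sox8 of group E followed with 8.09 ± 1.84. No Zic gene reached a mean of 1 CPM at this stage.

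By late 2-cell this order had changed in uninjected embryos. Fox signal was 1123 ± 262 CPM, Sox signal 163 ± 36.5 CPM and Zic signal 15.6 ± 7.29 CPM. Foxr1, a forkhead gene expressed in germ cells and early embryos, now led the Fox genes with 80.7 ± 48.9 CPM per kb, ahead of Foxj3 at 29.4 ± 8.81. The wide SD of Foxr1 reflects libraries from 27.8 to 329 CPM. Sox15 stood at 67.7 ± 31.0 CPM per kb and Sox11, the next Sox gene, at 4.45 ± 3.24.

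Duxbl embryos at late 2-cell had higher sums in all 3 families, given here without a test. Fox signal was 1848 ± 168 CPM (n = 5), Sox signal 372 ± 104 CPM and Zic signal 83.5 ± 32.6 CPM. Much of the Sox sum came from Sox11 alone and much of the Zic sum from Zic5 alone, with values given below. The mCherry embryos of that stage had 1076 ± 214, 147 ± 38.7 and 17.0 ± 6.49 CPM. In each family the lowest Duxbl library was above the highest mCherry library, at 1583 against 1359 CPM for Fox, 242 against 202 for Sox and 36.4 against 25.02 for Zic. The number of Fox genes with a mean of at least 1 CPM was 30 in Duxbl, 25 in mCherry and 27 in uninjected embryos. The share of all genes at that level was not counted.

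**Figure D1:**
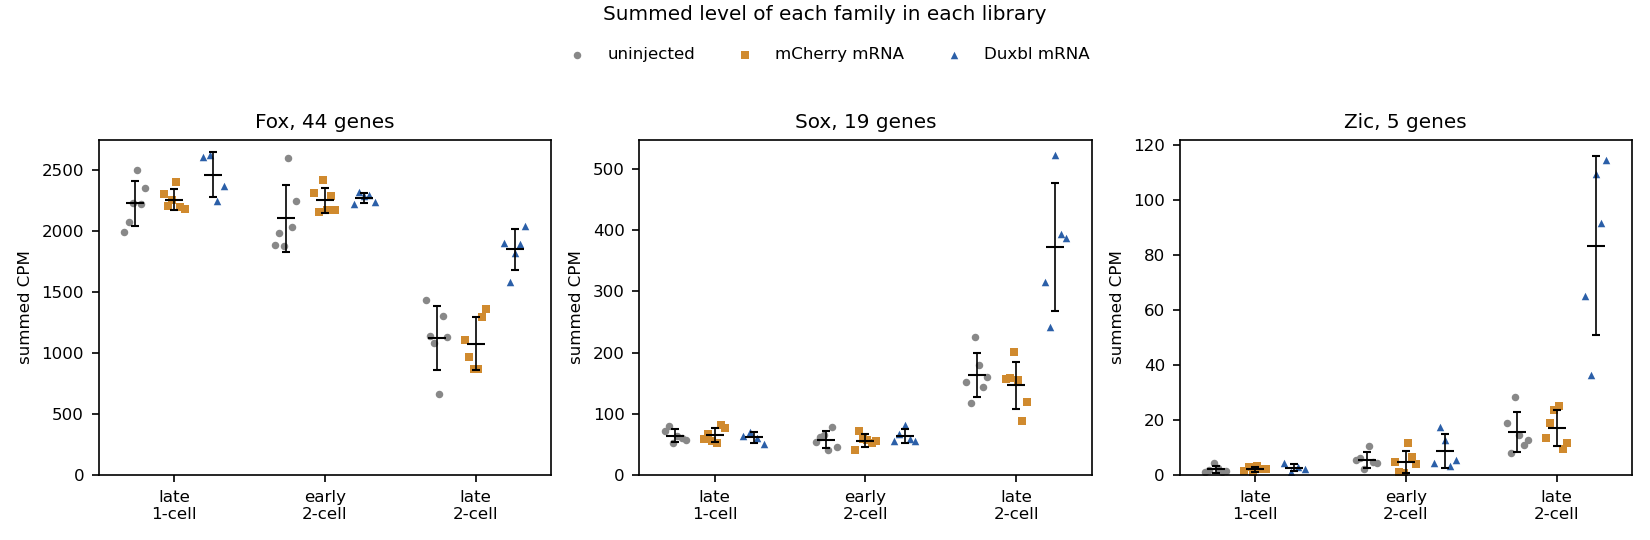
Summed CPM of the 44 Fox, 19 Sox and 5 Zic genes in each library, by stage; points are libraries, and bars are means ± SD. At late 2-cell the 5 Duxbl libraries lie above all 6 mCherry libraries in each family, from 36.4 CPM upwards for Zic against at most 25.02.

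Between mCherry and uninjected embryos, none of the 38, 40 and 54 members tested at late 1-cell, early 2-cell and late 2-cell was called by limma. The share of all tested genes called was 0% at each stage. Before adjustment 0, 3 and 1 members had p under 0.05, and the largest of these differences was that of Foxp2 at late 2-cell (1.30 on the log2 scale, SE 0.52). With voom weights none was called either.

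Duxbl mRNA likewise gave no called member at the first 2 collections. At late 1-cell 0 of 38 tested members were called against mCherry by limma, where 0.0193% of all tested genes were (0.00481% higher and 0.0144% lower), and 3 members had an unadjusted p under 0.05 (Foxn3, Sox4 and Zic4). At early 2-cell 0 of 40 were called, against 0.42% of all tested genes (0.0283% higher and 0.392% lower), and 2 members had an unadjusted p under 0.05. Both were neighbours, Zic1 and Zic4. Zic1, at 0.474, 2.69, 2.76, 0.555 and 0.806 CPM in the 5 Duxbl libraries, was in each above the highest mCherry library, at 0.472 CPM. It overlapped with uninjected embryos, whose deposited values reached 20 in library 4, against 11, 60, 61, 13 and 19 in the Duxbl libraries. How many of all genes separate from mCherry embryos in this way at early 2-cell was not counted. The Duxbl minus mCherry difference of Zic1 was 0.92 (SE 0.26, limma adjusted p 0.241). For Zic4 it was 1.33 (SE 0.40, limma adjusted p 0.295), and the groups overlapped. Voom weights called no member at either stage.

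At late 2-cell, 54 members were tested and 14 were too low for the test, which asked for a deposited value of at least 10 in 5 libraries. Of the 54, 28 were called, 23 higher and 5 lower in Duxbl than in mCherry embryos. Among all tested genes 55.9% were called, 26.8% higher and 29.1% lower, so the total number of called members was near the background. By direction, 42.6% of the tested members were higher and 9.26% lower. The tested members had a median difference of 0.77 against -0.05 for all tested genes. Fox genes had 14 higher and 2 lower of 33 tested, and Sox genes 6 and 2 of 17. Zic1, Zic4 and Zic5 were higher. In 18 of the rises and 3 of the falls the Duxbl and mCherry libraries did not overlap. Among all tested genes 15.6% were called higher and 18.4% lower without overlap. A member that is low in control embryos enters the test only if Duxbl embryos express it, so these counts hold for tested genes and not for all 68. The library numbered 4 held the highest Duxbl value for 11 of the 23 rising members. Without it the counts were again 23 higher and 5 lower, of 53 tested.

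**Figure D2:**
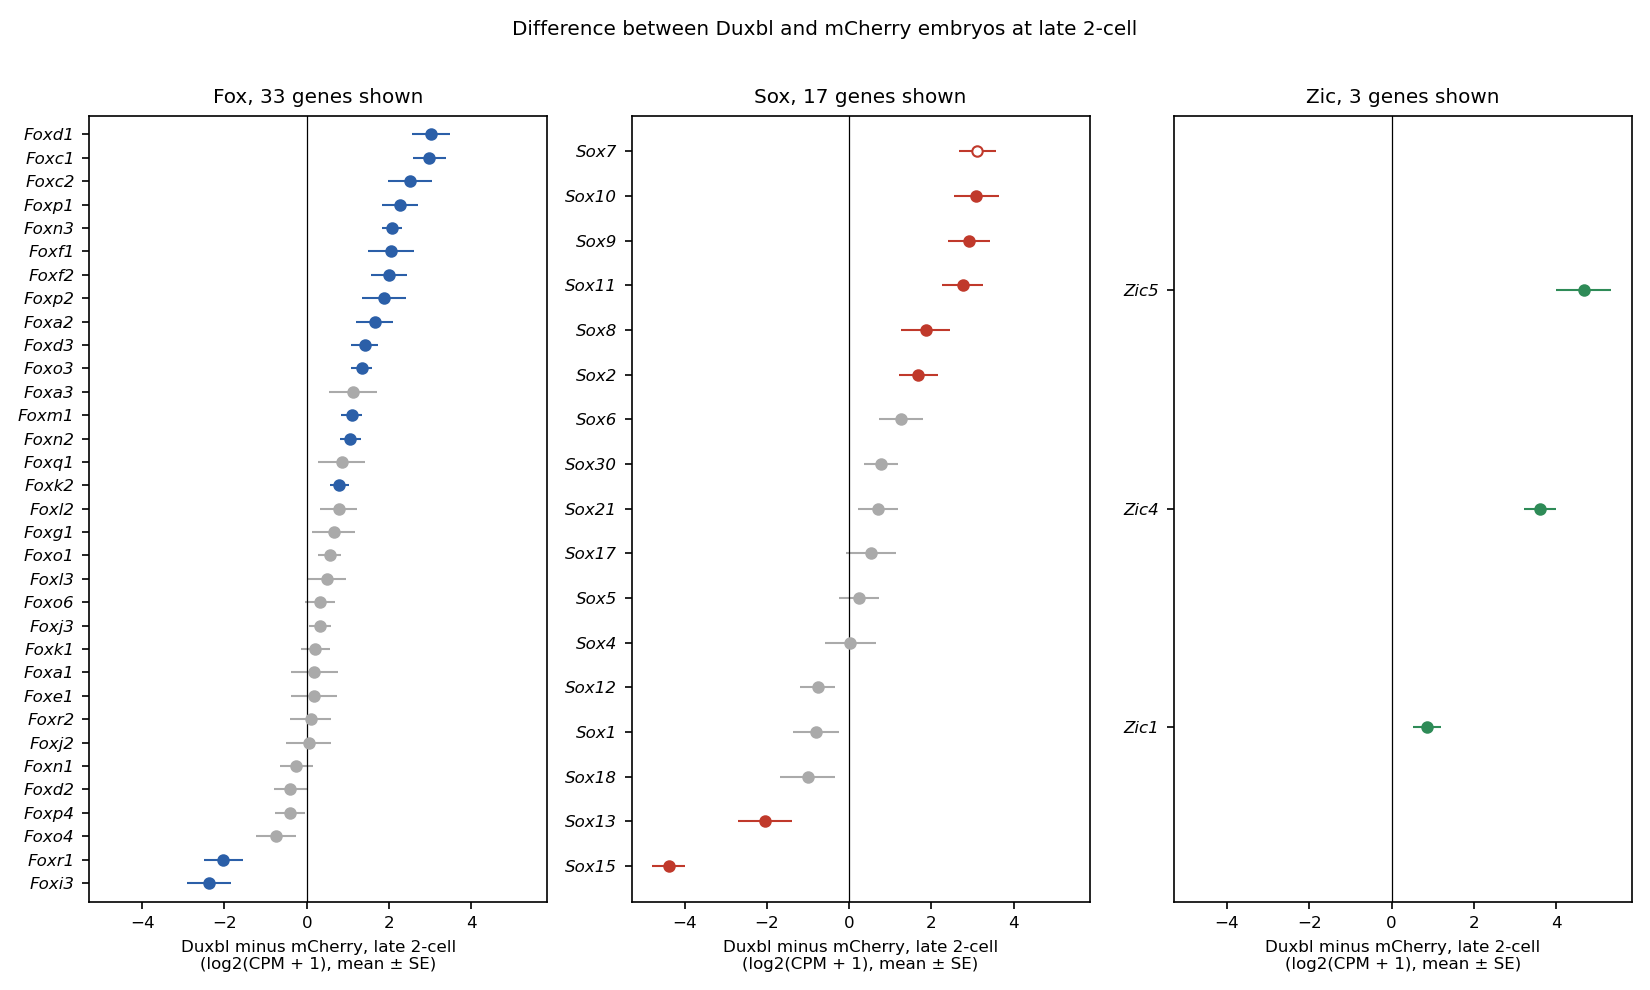
Difference between Duxbl and mCherry embryos at late 2-cell on the log2(CPM + 1) scale, mean ± SE, for the 33 Fox and 17 Sox genes tested and Zic1, Zic4 and Zic5; coloured points are called and grey ones are not, and the open point marks Sox7, listed at 0 in all 6 mCherry libraries. Values run from -4.39 for Sox15 to 4.67 for Zic5.

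Other RNA moved at the same stage. Among the markers that follow, Foxl2 (cumulus and granulosa) and Foxj1 (oviduct) are also members. The 14 markers of oocyte and zygote message summed to 7180 to 10305 CPM in Duxbl and 1865 to 3272 CPM in mCherry embryos, with 12 called higher. The 12 markers of the 2-cell stage summed to 32.6 to 245 against 853 to 3404 CPM, with 10 lower and 1 higher. Cumulus and granulosa markers summed to 17.1 to 59.8 against 10.3 to 18.4 CPM, with 3 higher and 1 lower of 6 tested. The granulosa hormone genes Inha and Inhba were at 0 in all 5 Duxbl libraries. Controls shared this, with Inha at 0 in all mCherry and Inhba at 0 in all uninjected libraries of the stage. Oviduct markers summed to 84.4 to 186 against 46.9 to 154 CPM, with 2 of 4 tested called higher. Sperm markers summed to 3.50 to 31.6 against 3.13 to 9.42 CPM, with 1 higher and 3 lower of 4 tested. Blood markers summed to 0 to 5.46 against 10.4 to 19.96 CPM, with 1 of 1 tested lower. The part of these shifts in the values of Fox, Sox and Zic genes was not tested.

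Zic5 had the largest difference of the tested members on the log2(CPM + 1) scale. The gene lies on chromosome 14 at 122694207 to 122703089 of mm39, on the minus strand, and encodes a factor of neural crest and neural tube development. At late 2-cell it was at 41.6, 27.8, 74.0, 77.8 and 82.3 CPM in the Duxbl libraries numbered 1, 3, 4, 6 and 7, the order used for all values that follow. The mCherry libraries had 0.0937, 1.11 and 6.74 CPM (lowest, median, highest). Every Duxbl library was thus above every mCherry library, and above the highest uninjected one at 15.3 CPM. The difference was 4.67 (SE 0.67, limma adjusted p 4.37e-06). At early 2-cell the same gene had been at 0.555 to 5.96 CPM in Duxbl and 0.169 to 9.55 CPM in mCherry embryos, with full overlap. Per kilobase, Zic5 went from 0.888 ± 1.29 in uninjected to 12.4 ± 4.99 CPM per kb in Duxbl embryos, the highest of the 5 Zic genes there.

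Zic4 rose as well. This gene, on chromosome 9 at 91244466 to 91271401, was at 11.97, 6.32, 32.7, 12.04 and 25.04 CPM in Duxbl and at 0.0505, 0.277 and 0.966 CPM in mCherry embryos. The groups did not overlap, and the difference was 3.603 (SE 0.39, limma adjusted p 8.22e-08).

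Zic1 and Zic2 stayed low. Zic1 had 1.24, 1.66, 2.11, 0.703 and 4.01 CPM in Duxbl embryos against 0, 0.366 and 1.63 in mCherry embryos, an overlapping difference of 0.87 (SE 0.34, limma adjusted p 0.0327). The call was lost with library totals, on the deposited scale, with a pseudocount of 0.1 CPM and with voom weights. It was also lost with the library number as a block and without Duxbl library 4 or 7 or mCherry library 3, 5 or 7. Zic2, the holoprosencephaly gene that lies head to head with Zic5, was not tested at this stage. Its Duxbl libraries had 9.001, 0.301, 0.392, 0.984 and 0.138 CPM, so that library 1 alone was high, and mCherry libraries reached at most 0.483 CPM. The library preparation does not mark strand, so reads from the stretch where the annotated spans of Zic1 and Zic4 overlap on opposite strands cannot be assigned to one of them by strand.

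**Figure D3:**
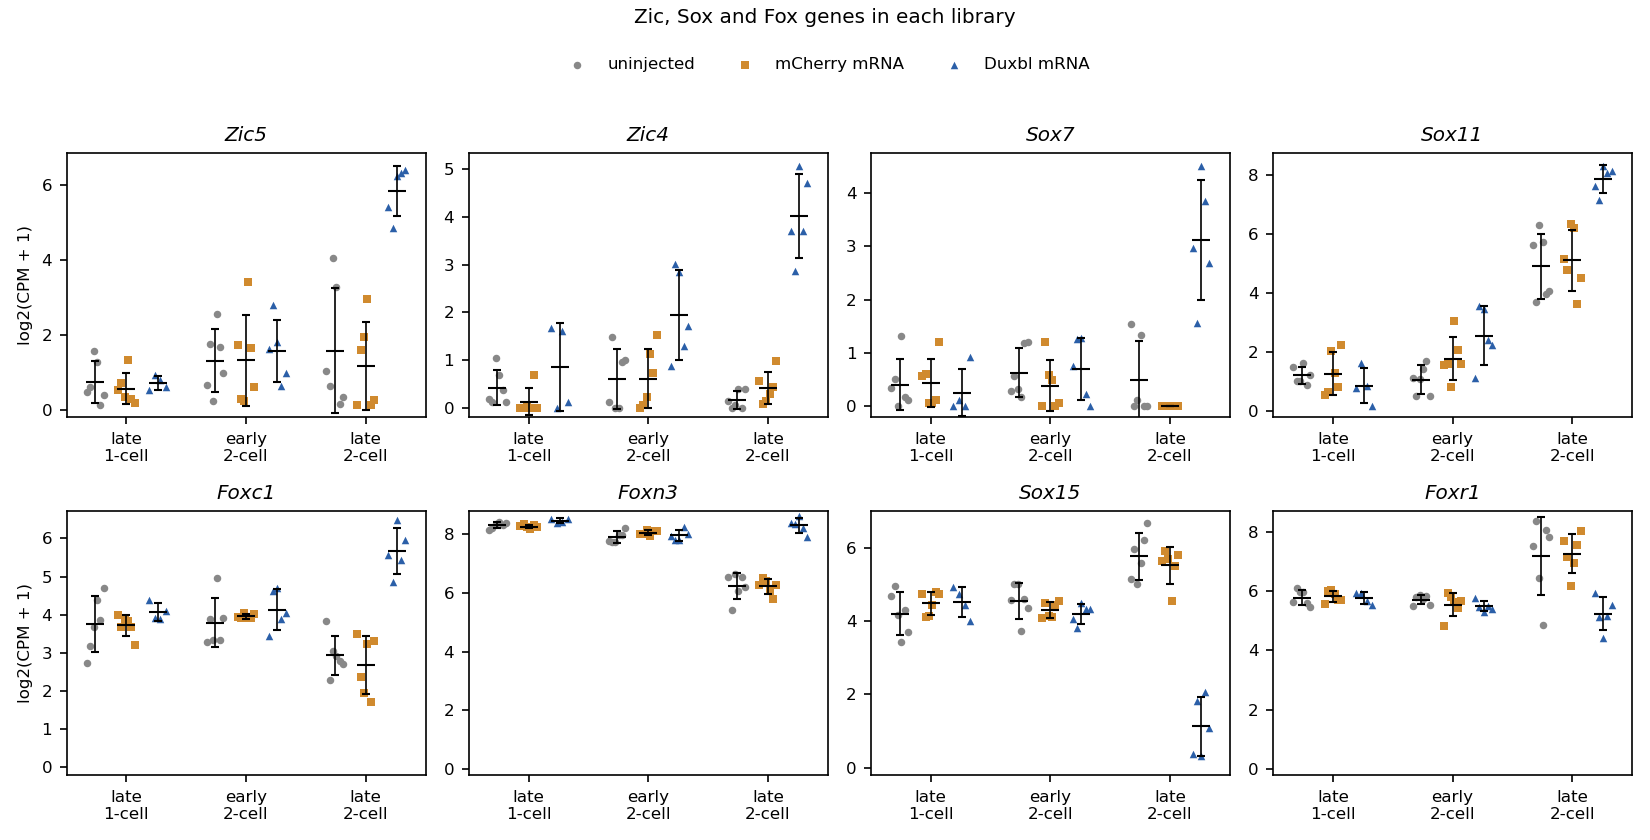
log2(CPM + 1) of Zic5, Zic4, Sox7, Sox11, Foxc1, Foxn3, Sox15 and Foxr1 in every library, by stage and treatment; points are libraries, and bars are means ± SD. At late 2-cell the Duxbl libraries separate from the mCherry libraries in all 8 genes and from the uninjected ones in all but Foxr1, as for Zic4 (6.32 to 32.7 CPM against at most 0.966 in mCherry embryos), and at the earlier stages they overlap with the mCherry libraries, except for Foxn3 at late 1-cell.

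The rising Sox genes were Sox11 of group C, Sox8, Sox9 and Sox10 of group E, Sox7 of group F and Sox2 of group B1. Sox11, a group C gene of neural progenitors on chromosome 12 at 27384263 to 27392573, was the most abundant Sox gene in Duxbl embryos per kilobase, at 29.0 ± 8.54 CPM per kb. It had 196, 142, 316, 271 and 282 CPM in Duxbl and 11.4, 30.5 and 81.2 CPM in mCherry embryos. The groups did not overlap, and the difference was 2.76 (SE 0.49, limma adjusted p 5.57e-05). The other group C genes, Sox4 and Sox12, were at 10.2 ± 8.86 and 5.77 ± 3.88 CPM in Duxbl and at 7.89 ± 4.98 and 9.16 ± 3.35 CPM in mCherry embryos, and neither passed (0.03, SE 0.62 and -0.77, SE 0.43).

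All 3 group E genes rose. Sox10, a neural crest and glial factor, had 22.6, 8.83, 42.1, 7.63 and 13.9 CPM in Duxbl and 0.0966, 0.999 and 2.69 CPM in mCherry embryos, with no overlap (3.09, SE 0.56, limma adjusted p 6.57e-05). Sox9, which drives cartilage and testis development, had 0.958, 8.53, 19.4, 10.6 and 16.8 CPM against 0, 0.153 and 0.890 CPM. Library 1 lay just above the mCherry range, and the difference was 2.91 (SE 0.51, limma adjusted p 4.63e-05). Uninjected embryos overlapped, with a deposited value of 73 in library 4 against 20 in Duxbl library 1. Sox8 had 23.6, 27.5, 65.4, 10.96 and 18.1 CPM against 1.06, 7.89 and 14.6 CPM, an overlapping rise of 1.86 (SE 0.59, limma adjusted p 0.0100). Unlike Sox9 and Sox10, Sox8 was present from the start, at 18.2 to 31.1 CPM in uninjected late 1-cell embryos. It also overlaps the noncoding gene Cerox1 on the other strand.

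Sox7, a group F gene of endothelium and primitive endoderm, was listed at 0 in all 6 mCherry libraries at late 2-cell. Located on chromosome 14 at 64181122 to 64188181, it had 6.80, 1.96, 21.8, 13.4 and 5.48 CPM in the Duxbl libraries. No fold is given against a group at 0, and limma's adjusted p was 4.90e-06. Uninjected embryos of that stage had 0 to 1.93 CPM, just under the lowest Duxbl library, and 3 of their 6 libraries were at 0. The other group F genes did not pass, with Sox17 at 2.94 ± 3.001 against 1.63 ± 1.84 CPM and Sox18 at 1.44 ± 1.93 against 3.61 ± 2.58 CPM.

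Sox2, the group B1 gene of pluripotent cells, rose with no overlap. It had 9.48, 9.84, 22.3, 21.1 and 7.83 CPM in Duxbl and 0.784, 4.05 and 6.61 CPM in mCherry embryos (1.68, SE 0.48, limma adjusted p 0.00474), and uninjected embryos reached 8.60 CPM. Its gene lies within the noncoding Sox2ot on the same strand. Sox1, the second B1 gene, was at 7.78 ± 8.82 against 10.3 ± 5.75 CPM and did not pass, and Sox3 was not tested.

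Sox15 had the steepest fall of all members. This gene of trophoblast and muscle precursors lies on chromosome 11 at 69546140 to 69547553. It had 0.287, 2.56, 0.245, 3.19 and 1.10 CPM in Duxbl and 22.4, 49.9 and 59.0 CPM in mCherry embryos. No Duxbl library came near the control range, and the gene fell by 4.39 (SE 0.39, limma adjusted p 6.12e-09). Its level had been alike at early 2-cell, at 17.7 ± 3.40 CPM in Duxbl and 18.9 ± 2.98 CPM in mCherry embryos. Sox15 thus dropped below its own early level in Duxbl embryos (-3.07 from early to late 2-cell, SE 0.31, limma adjusted p 2.86e-11), while it rose in uninjected ones (1.22, SE 0.29, adjusted p 0.000252). Reads of Mpdu1, which overlaps it on the other strand, cannot be told from its own by strand. Sox13, a group D gene of T cells, was the other Sox gene to fall. It had 0.144, 0.1004, 0, 0.375 and 1.98 CPM against 0.263, 5.15 and 12.6 CPM, with overlap (-2.05, SE 0.66, limma adjusted p 0.0113).

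The rising Fox genes are taken by subfamily, starting with Foxd, Foxc, Foxf and Foxa. Foxd1, a gene of kidney stroma and forebrain on chromosome 13 at 98490750 to 98495813, had 10.96, 6.53, 16.0, 17.6 and 9.16 CPM in Duxbl and 0.0483, 0.461 and 1.97 CPM in mCherry embryos. There was no overlap, and the difference was 3.02 (SE 0.45, limma adjusted p 7.47e-06). Foxd3, which keeps neural crest and stem cells undifferentiated, was lower in level at 0.515 to 6.37 CPM but likewise above all mCherry libraries, which reached 0.368 CPM (1.41, SE 0.33, limma adjusted p 0.000891). The highest uninjected library, at 0.525 CPM, lay within the Duxbl range.

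Foxc1 and Foxc2, of eye, vessel and somite development, both rose. Foxc1 had 46.3, 28.3, 88.2, 42.6 and 61.1 CPM in Duxbl and 2.30, 6.26 and 10.3 CPM in mCherry embryos, far from overlap (2.98, SE 0.40, limma adjusted p 1.85e-06). Foxc2 had 13.8, 3.92, 4.02, 10.9 and 24.4 CPM against 0, 0.586 and 3.94 CPM. Its library 3 lay within the mCherry range by a narrow margin (2.51, SE 0.53, limma adjusted p 0.000348).

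Foxf1, a gene of gut and lung mesenchyme, was at 0 in Duxbl library 1 and had 5.42, 13.2, 5.06 and 5.66 CPM in the others. The mCherry libraries had 0, 0.0515 and 2.20 CPM (2.05, SE 0.56, limma adjusted p 0.00370). Foxf2 ranged from 1.68 to 10.4 CPM against at most 1.26 CPM (1.99, SE 0.44, limma adjusted p 0.000535). It overlapped with uninjected embryos, at a deposited value of 48 in library 4 against 35 in Duxbl library 1. Foxa2, of endoderm and notochord, overlapped, at 1.18 to 5.02 CPM against at most 2.52 CPM (1.65, SE 0.45, limma adjusted p 0.00345). Foxa1 and Foxa3, its relatives in liver and gut, had 5.83 ± 3.61 and 10.8 ± 6.38 CPM in Duxbl against 4.15 ± 2.31 and 5.09 ± 3.90 CPM in mCherry embryos and did not pass.

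Some of these genes lie in clusters. On chromosome 8, Foxf1 and Foxc2 are 28.0 kb apart and Foxl1 follows 9.04 kb further on. Foxf1 and Foxc2 rose, while Foxl1 was too low to test, at 0.622, 1.10, 0, 0 and 0.506 CPM in Duxbl and 0 in all mCherry libraries. On chromosome 13, Foxq1 lies 64.8 kb from Foxf2, and Foxf2 lies 175 kb from Foxc1. Foxf2 and Foxc1 rose, and Foxq1 did not pass (0.85, SE 0.57). On chromosome 14, Zic5 rose and Zic2, 9.757 kb away, was high in a single library.

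The Foxn, Foxo and Foxp genes that rose against mCherry embryos had, in uninjected embryos, fallen during the 2-cell stage. Foxn3, a repressor of cell cycle and metabolic genes, had 330, 326, 392.1, 297 and 237 CPM in Duxbl and 54.6, 76.4 and 89.5 CPM in mCherry embryos at late 2-cell. The difference was 2.08 (SE 0.24, limma adjusted p 1.78e-07), with no overlap. Uninjected embryos went from 314 ± 20.3 CPM at late 1-cell through 239 ± 33.1 at early 2-cell to 77.1 ± 21.6 at late 2-cell. Late 2-cell Duxbl embryos, at 316 ± 56.3 CPM, had the level of uninjected late 1-cell embryos within the spread. Duxbl embryos had 30.4 ± 1.59 CPM per kb at late 1-cell, 21.7 ± 2.91 at early 2-cell and 27.5 ± 4.89 at late 2-cell. Their change from early to late 2-cell did not pass (0.34, SE 0.15, limma adjusted p 0.0802), though it did in 4 of 17 other settings. Noncoding genes overlap Foxn3, Foxp1 and Foxo1, so some reads may belong to them.

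Foxo3, Foxn2, Foxp1 and Foxp2 likewise fell in uninjected embryos and were higher in Duxbl than in mCherry embryos at late 2-cell. Foxo3, needed to hold ovarian follicles dormant, was at 233 ± 57.6 CPM in Duxbl and 90.3 ± 11.2 CPM in mCherry embryos (1.33, SE 0.24, limma adjusted p 7.78e-05). Foxn2 was at 238 ± 61.5 against 112 ± 22.7 CPM (1.06, SE 0.24, limma adjusted p 0.000834). Foxp1, a repressor in lung, heart and lymphocytes, had 30.4, 20.4, 29.9, 15.0 and 20.6 CPM against 2.66, 3.41 and 6.20 CPM (2.28, SE 0.44, limma adjusted p 0.000136). Unlike Foxn3, it was above its uninjected late 1-cell level, at 1.69 ± 0.486 against 0.820 ± 0.143 CPM per kb. Foxp2, the speech-related gene, was at 31.0 ± 10.3 against 8.31 ± 3.95 CPM (1.88, SE 0.54, limma adjusted p 0.00550). In all 4 the Duxbl and mCherry libraries did not overlap. Foxn2 overlapped with uninjected embryos, at a deposited value of 3434 in library 1 against 3015 in Duxbl library 3. Foxm1, which drives mitotic genes, and Foxk2 rose too, to 132 ± 18.2 from 62.3 ± 13.2 CPM (1.09, SE 0.25) and to 138 ± 23.6 from 80.4 ± 19.2 CPM (0.79, SE 0.23). Neither had fallen significantly in uninjected embryos.

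Not every Fox gene present at late 1-cell passed. Foxo1 had 186, 106, 124, 181 and 244 CPM in Duxbl and 67.4, 111 and 143 CPM in mCherry embryos at late 2-cell. The difference of 0.57 (SE 0.28) did not pass (limma adjusted p 0.0888), though it did in a fit of all 9 groups and without Duxbl library 3. Foxo1 fell within Duxbl embryos between early and late 2-cell (-1.65, SE 0.19, limma adjusted p 9.06e-10), as in uninjected ones (-2.20, SE 0.18, adjusted p 1.18e-15). Foxj3, an activator of muscle genes, had 355, 374, 272, 468 and 363 CPM against 186, 284 and 474 CPM, full overlap (0.32, SE 0.27, limma adjusted p 0.316). Foxk1 was at 12.5 ± 6.22 against 10.05 ± 2.78 CPM (0.21, SE 0.35).

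**Figure D4:**
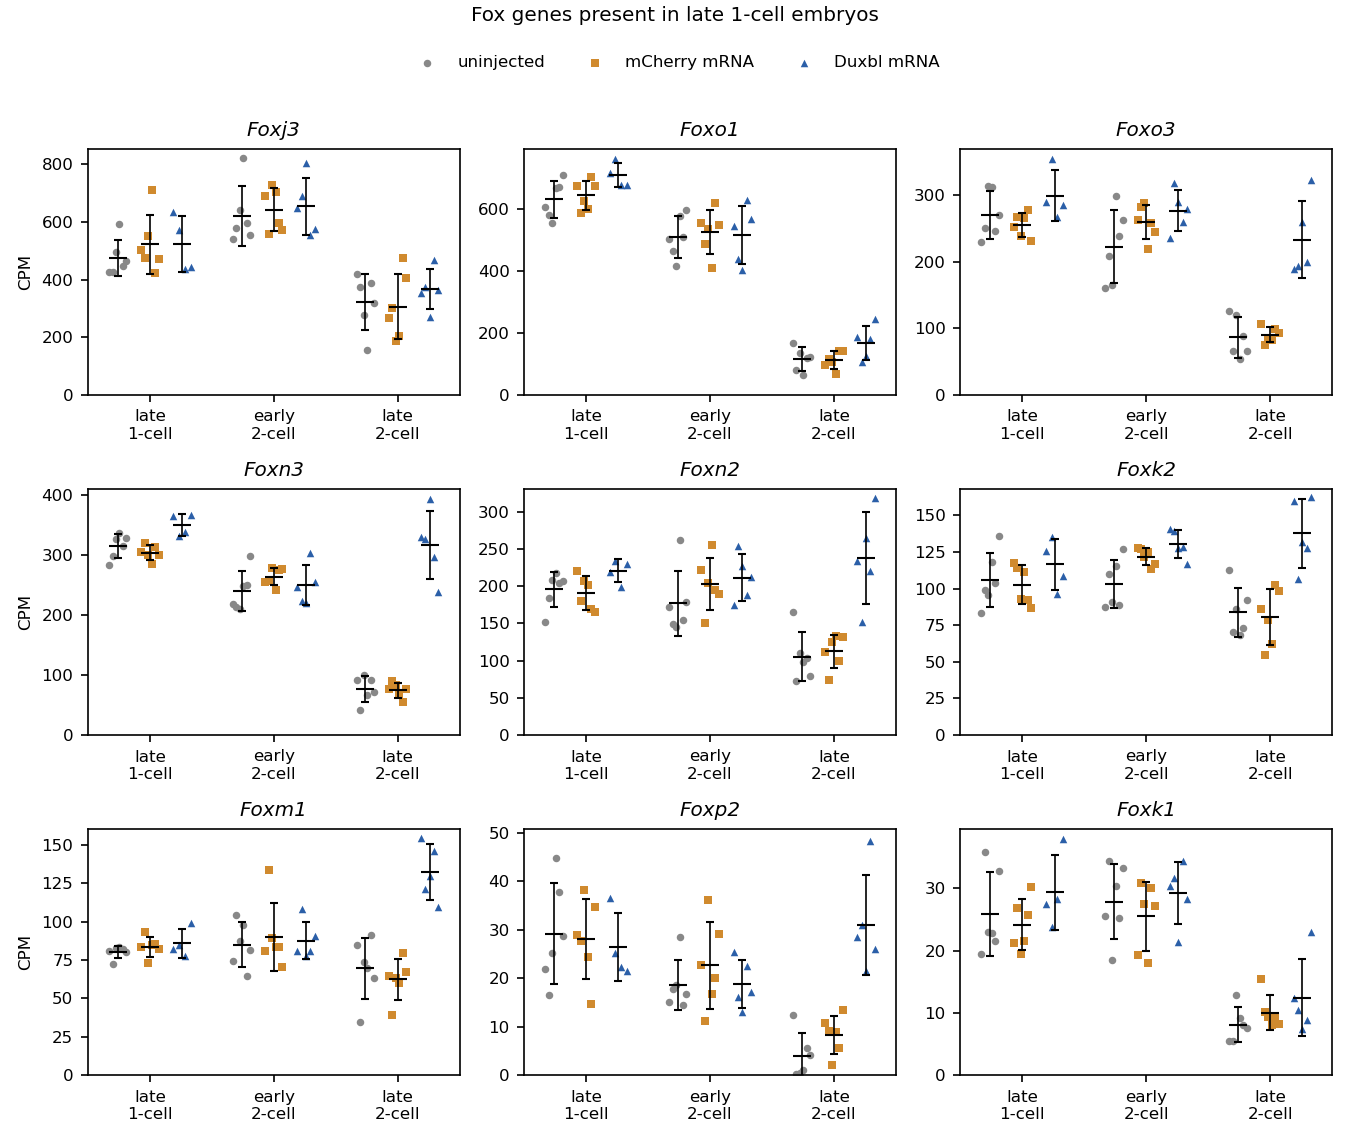
CPM of 9 Fox genes present at late 1-cell, in every library by stage and treatment; points are libraries, and bars are means ± SD. Foxn3 and Foxo3 are higher in Duxbl than in mCherry embryos at late 2-cell without overlap, at 237 to 392.1 against 54.6 to 89.5 CPM for Foxn3, whereas Foxo1 and Foxj3 overlap.

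Foxr1 and Foxi3 were the Fox genes that fell. Foxr1, on chromosome 9 at 44345070 to 44352433, had 59.3, 33.9, 20.1, 34.9 and 45.3 CPM in Duxbl and 71.5, 164 and 261 CPM in mCherry embryos. The groups did not overlap (-2.02, SE 0.47, limma adjusted p 0.000990), although the lowest uninjected library, at 27.8 CPM, lay within the Duxbl range. Foxi3, a gene of placodes and ectodermal appendages on chromosome 6, had 3.69, 0.1004, 0, 0.0468 and 0.138 CPM against 2.36, 6.84 and 15.8 CPM. Library 1 alone overlapped (-2.38, SE 0.53, limma adjusted p 0.000665). Both genes, like Sox13 and Sox15, rose from early to late 2-cell in uninjected embryos.

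The promoter sequences of 2 rising and 2 falling members are shown as examples of the regions whose base composition is compared next, and were chosen after their values were seen. They are RefSeq promoters of build GRCm38.p6, another build than that of the deposited table, and span 250 bases before to 50 bases after the annotated start, 5′ to 3′ on the gene's strand. Capitals mark CG dinucleotides, the sites of DNA methylation. Zic5 lies at chr14:122465609-122465908 on the minus strand, Sox11 at chr12:27342669-27342968 on the minus strand, Sox15 at chr11:69654787-69655086 on the plus strand and Foxr1 at chr9:44440819-44441118 on the minus strand.
Zic5: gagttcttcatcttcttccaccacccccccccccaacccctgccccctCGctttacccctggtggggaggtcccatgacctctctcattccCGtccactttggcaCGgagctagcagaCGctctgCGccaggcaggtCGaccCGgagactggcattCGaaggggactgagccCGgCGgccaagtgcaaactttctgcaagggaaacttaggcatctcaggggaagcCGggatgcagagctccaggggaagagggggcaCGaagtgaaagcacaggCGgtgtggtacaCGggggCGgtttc
Sox11: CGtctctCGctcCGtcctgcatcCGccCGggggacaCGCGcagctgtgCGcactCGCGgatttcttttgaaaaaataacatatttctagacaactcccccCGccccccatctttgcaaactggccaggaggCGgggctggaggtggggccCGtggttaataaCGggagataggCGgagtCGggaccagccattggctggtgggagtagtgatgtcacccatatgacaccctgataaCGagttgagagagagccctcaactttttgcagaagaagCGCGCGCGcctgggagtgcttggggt
Sox15: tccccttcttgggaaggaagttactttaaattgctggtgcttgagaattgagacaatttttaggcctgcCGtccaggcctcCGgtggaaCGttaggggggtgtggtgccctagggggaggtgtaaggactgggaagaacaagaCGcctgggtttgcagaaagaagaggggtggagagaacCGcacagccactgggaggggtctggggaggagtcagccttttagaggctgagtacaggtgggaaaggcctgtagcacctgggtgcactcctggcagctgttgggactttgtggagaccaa
Foxr1: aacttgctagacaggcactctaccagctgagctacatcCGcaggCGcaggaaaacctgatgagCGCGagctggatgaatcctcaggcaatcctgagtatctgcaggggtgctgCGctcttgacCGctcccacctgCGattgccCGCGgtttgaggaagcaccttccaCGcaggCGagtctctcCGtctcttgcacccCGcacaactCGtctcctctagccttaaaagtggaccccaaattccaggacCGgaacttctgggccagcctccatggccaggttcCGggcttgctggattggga

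Sox11 holds 21 CG dinucleotides in this window and Sox15 holds 5, with Zic5 at 15 and Foxr1 at 16. Of all 32851 windows, 62.0% hold at least as many as Sox15 and 24.8% at least as many as Sox11. Promoters were given for 43 of the 68 members (27 Fox, 13 Sox and 3 Zic genes), with 53 windows in all. Their median of 21 CG was above the median of 7 over all windows. Among members, windows of rising genes had a median of 21 (19 windows), falling genes 23.5 (4 windows) and genes without a call 22 (22 windows), and members not tested 9 (8 windows). The GC box GGGCGG, searched on both strands, was in 64.2% of member windows and 35.7% of all windows, and the TATA box TATAAA in 9.43% and 13.6%.

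The normal course of the 2-cell stage gave a second view of the same genes. Between late 1-cell and early 2-cell, 0 of 63 tested members changed in uninjected embryos by limma, against 2.93% of all tested genes (1.12% higher and 1.81% lower), with 6 at an unadjusted p under 0.05. Voom weights called Foxd1 higher and Foxn3 lower there, and a fit of these 2 groups alone called 2 members, among them Foxn3, which was lower. Between early and late 2-cell, 34 of 63 were called, 22 higher and 12 lower. Among all tested genes 56.9% were called, 30.3% higher and 26.6% lower. The rising members included 10 of 19 Sox genes, led by Sox11 (3.84, SE 0.43), Sox4 (3.05), Sox1 (2.63) and Sox13 (2.27). The falling ones were led by Foxp2 (-2.48) and Foxo1 (-2.20), with 9 Fox genes among the 12 members that fell. Of the 39 Fox genes tested, 11 rose (28.2%) and 9 fell (23.1%), near the shares of all tested genes. Of the 19 Sox genes 3 fell.

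Calls against mCherry embryos were then counted by what the members do in uninjected embryos. Of the 12 that fell in uninjected embryos, 7 were higher in Duxbl than in mCherry embryos and none was lower, and those 7 are 7 of the 23 rises. This share of 58.3% was near that of all genes that fell in uninjected embryos and were tested, 58.5%. The members were Foxc1, Foxn2, Foxn3, Foxo3, Foxp1, Foxp2 and Sox8, of which Foxc1 and Sox8 lost their fall in uninjected embryos with library totals and without some libraries. Of the 22 that rose in uninjected embryos, 4 were higher (Foxc2, Sox2, Sox10 and Sox11), 5 were lower and 13 were not called or not tested. Of the 21 tested, 19.0% were higher and 23.8% lower, against 3.34% and 61.8% of all tested genes that rose in uninjected embryos. No test of this difference was made. All 5 members lower in Duxbl embryos belonged to these 22. The other 12 rises were members with no called change in uninjected embryos, among them Zic5, Zic4, Sox7, Sox9 and Foxd1. Of the 21 tested members without such a change, 57.1% were higher and 0% lower. Among all tested genes without such a change, 25% were higher and 14.9% lower. This was not tested either, and members low in control embryos entered the test only where Duxbl embryos express them.

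Within Duxbl embryos 33 of 63 members were called between early and late 2-cell, 28 higher and 5 lower, against 39.2% of all tested genes, 20.4% higher and 18.8% lower. This comparison shares the Duxbl late 2-cell libraries with the one against mCherry embryos. Of the 22 normally rising members 12 rose in Duxbl embryos as well, including Foxe1 (2.19 against 2.15 in uninjected embryos), Sox12 (2.08 against 2.09), Sox4 (1.70 against 3.05) and Sox1 (1.78 against 2.63). Foxr1 (-0.25 against 1.47), Foxi3 (0.11 against 2.99) and Sox13 (0.02 against 2.27) did not pass in Duxbl embryos, and Sox15 fell. Of the 12 normally falling members 4 fell in Duxbl embryos too (Foxj3, Foxk1, Foxo1 and Sox5), and Foxc1 rose. How many of all normally rising or falling genes did the same was not counted, so members cannot be set against other genes here.

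**Figure D5:**
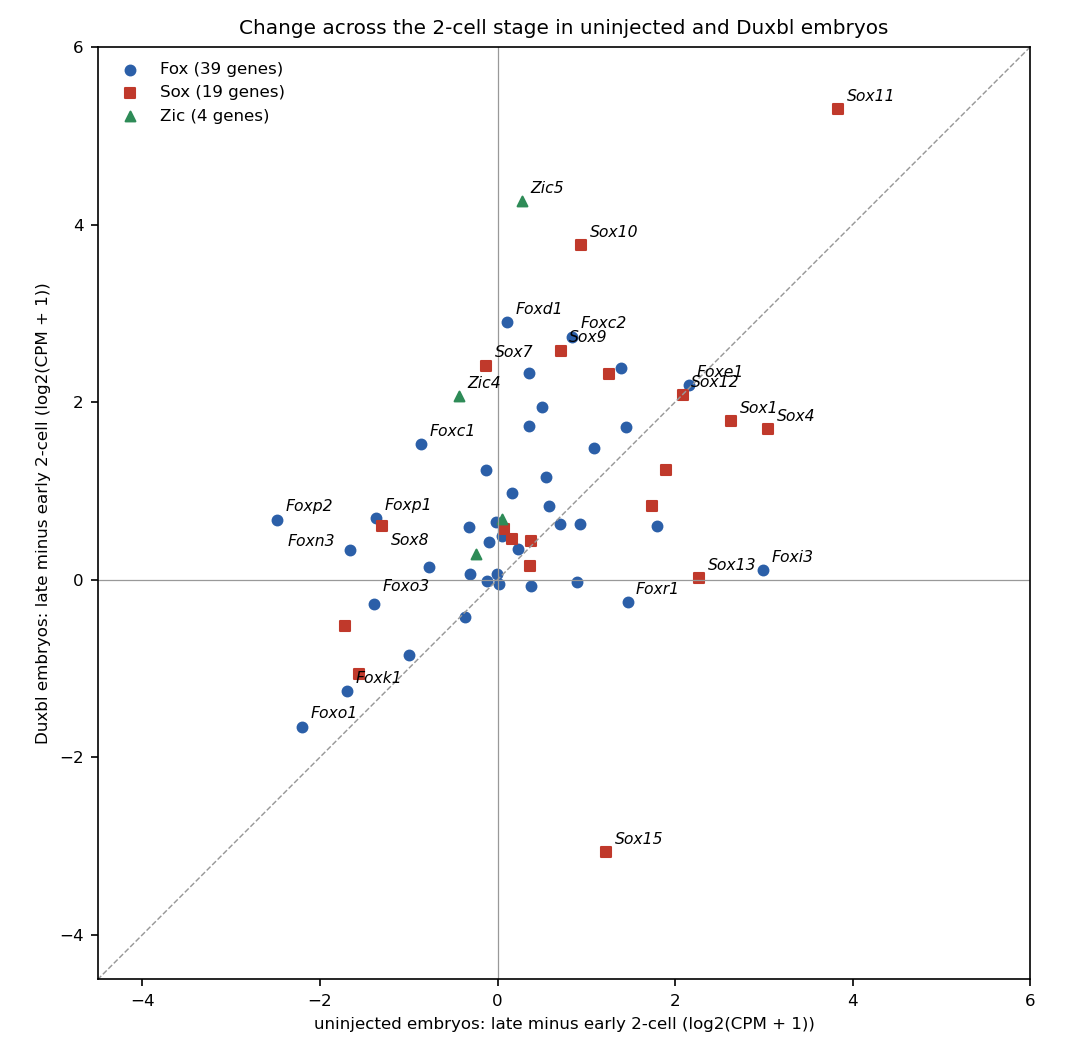
Change from early to late 2-cell on the log2(CPM + 1) scale in uninjected (horizontal) and Duxbl embryos (vertical) for 39 Fox, 19 Sox and 4 Zic genes; the dashed line marks equal change, and the 2 axes share no library. Sox11 rises on both axes (3.84 and 5.30), Zic5 in Duxbl embryos (0.27 and 4.27), and Sox15 moves in opposite directions (1.22 and -3.07).

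Whether the Duxbl effect differed between early and late 2-cell was tested as an interaction. Of 63 members 26 were called. The Duxbl minus mCherry difference, taken with its sign, was higher at late 2-cell in 22 and lower in 4. Among all tested genes 44.9% were called, 21.9% higher and 23.1% lower. The highest value was that of Zic5 (4.41, SE 0.79, limma adjusted p 6.76e-06) and the lowest that of Sox15 (-4.29, SE 0.43, adjusted p 1.31e-11). Zic1, Sox8 and Sox13, called at late 2-cell, did not pass this test of the difference, though Sox8 and Sox13 did with uninjected embryos as the control and Sox13 with library totals.

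Related and partner genes were counted from lists drawn up with earlier results known. Beside these counts, 26.8% of all tested genes were higher and 29.1% lower in Duxbl than in mCherry embryos at late 2-cell. Of 6 Gli and Glis genes, the nearest relatives of Zic, 3 were higher and 1 lower in Duxbl than in mCherry embryos at late 2-cell. Glis1 and Glis3 rose by 2.13 each and Gli3 by 1.32, whereas Glis2 fell by 2.74. Of the 4 Tcf and Lef genes, whose HMG box resembles that of Sox and which act in Wnt signalling, 3 were higher, with Lef1 at 4.08. Of 13 tested Pou genes, the partners of Sox proteins, 9 were higher and 3 lower. Pou5f1, which encodes OCT4, rose by 1.75 and the neural gene Pou3f2 by 4.58, and Pou6f1 fell by 3.69.

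Regulators of Fox proteins moved both ways, as did all tested genes, of which 26.8% were higher and 29.1% lower. On a list of 22 regulators of FOXO proteins, 9 were higher and 7 lower. The list holds genes of the AKT and 14-3-3 route, which keeps FOXO proteins out of the nucleus, and others such as Sirt1. The PI3 kinase subunit gene Pik3r1 rose by 1.82 and the 14-3-3 gene Ywhaz by 1.93. The kinase gene Sgk3 fell by 2.98, the 14-3-3 gene Sfn by 3.66 and the deacetylase gene Sirt1 by 2.38. Foxh1, the Smad partner in Nodal signalling, was too low to test and at 0 to 0.0460 CPM in Duxbl embryos. Of 12 tested genes of its pathway 3 were higher (Furin 1.78, Smad3 1.06 and Smad4 0.90) and none lower.

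The 14 members not tested at late 2-cell were Foxb1, Foxb2, Foxd4, Foxh1, Foxi1, Foxi2, Foxj1, Foxl1, Foxn4, Foxp3, Foxs1, Sox3, Sox14 and Zic2. Among them Foxn4, a retinal and spinal cord gene, was listed at 0 in all 6 mCherry libraries and had 1.82, 0.0502, 0.392, 1.17 and 0.783 CPM in Duxbl embryos. Foxb1, of the hypothalamus, had 2.35, 0.201, 0, 1.92 and 0.322 CPM against at most 0.368 CPM. Foxj1, the master gene of motile cilia, stayed at or below 0.294 CPM in Duxbl embryos, and Foxi1 and Foxb2 were at 0 in all 5 of those libraries.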

How the data were processed

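RNA-seq was made from tubes of pooled embryos with the SMART-Seq v4 and Nextera XT kits and paired-end sequencing, per the labels' protocols. The submitters' processing notes name Trimmomatic 0.39, STAR 2.7.10a, Picard 3.0.0 and featureCounts 2.0.4 and the build mm39. The authors deposited 1 table of whole numbers for 35750 genes, treated here as a score: read counts apparently scaled per library and rounded, since 19 of 50 libraries lack some small whole numbers. Count tests were therefore not used, and read depth and counting intervals are unknown.

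From these values, CPM was computed with trimmed-mean factors over all 50 libraries, leaving out the outer 30% by ratio and 5% by abundance. Tests used limma 3.58.1 in R 4.3.3 on log2(CPM + 1), with trend, robust variance and Benjamini-Hochberg adjustment over all tested genes, two-sided. A gene was tested with a deposited value of at least 10 in 4 libraries (late 1-cell and the fit of all 9 groups) or 5 (other stages). Treatment comparisons used the 3 groups of the stage, and stage changes and the interaction used all 9. Exon lengths per kilobase came from a GENCODE annotation of the older mouse build. The procedure was tested on simulated data. Groups come from the labels. Nothing says that tubes came from separate animals, so p-values measure the spread between tubes. The labels do not say what the shared library numbers mark, and the main fits left them out. Same-numbered libraries of a stage were more alike than differently numbered ones, as given at the end.

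Alternatives were other scalings, filters, pseudocounts, controls, fits, voom weights, the library number as a block and leaving out each library. Scaling within the stage was added after the data were seen. Members and gene lists were chosen with earlier results of these data known. Values in every library are given for the Zic genes, Sox7, the 6 largest called rises and 4 largest called falls at late 2-cell in each of Fox and Sox, and the 2 most abundant members of each in uninjected embryos at each stage. Some results, of a member and of a gene on a list, are not reported here. Those given in full beyond this rule were chosen after their values were seen.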

Additional observations from a re-analysis of the deposited data

Results flagged for a closer look

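In 2 of the 55 groups checked, a single library lay far from the rest, where chance gives about 1 in 20. Zic2 was at 9.001 CPM in Duxbl late 2-cell library 1 and at 0.138 to 0.984 CPM in the other 4. Sox15 was at 22.4 CPM in mCherry late 2-cell library 5 and at 44.3 to 59.0 CPM in the other 5.

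The Duxbl minus mCherry difference differed between late and early 2-cell, by the interaction test in limma, for 16 of the genes described in full. It was larger at late 2-cell for Zic5 (4.41), Sox10 (2.93), Foxd1 (2.81), Foxc1 (2.80), Sox7 (2.80), Sox9 (2.55), Foxp1 (2.29), Zic4 (2.27), Foxn3 (2.16), Foxc2 (1.99), Sox11 (1.98), Foxf1 (1.67) and Sox2 (1.64). The value for Sox7 depends on the pseudocount, since all mCherry libraries of late 2-cell are listed at 0. The difference was lower, and below 0, at late 2-cell for Sox15 (-4.29), Foxi3 (-2.51) and Foxr1 (-1.97).

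Noncoding genes named after members, which the comparisons above did not use, also differed at late 2-cell. Sox1ot was at 20.97 ± 10.2 CPM in Duxbl and 0.272 ± 0.156 CPM in mCherry embryos (3.97, SE 0.37, limma adjusted p 1.11e-08), while Sox1 itself did not pass (-0.81, SE 0.56). Sox2ot was at 20.8 ± 24.0 against 0.588 ± 0.723 CPM (3.19, SE 0.66, limma adjusted p 0.000324), and Foxd2os at 19.5 ± 10.9 against 3.92 ± 2.49 CPM (2.09, SE 0.57, limma adjusted p 0.00351), while Foxd2 did not pass (-0.40, SE 0.41).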

How the results depend on the processing

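Main counts of called members were 28 for Duxbl against mCherry embryos at late 2-cell, 34 and 33 for early to late 2-cell in uninjected and Duxbl embryos, and 26 for the interaction. Under the planned settings they ran from 26 to 40, 29 to 37, 26 to 33 and 22 to 28, and leaving out each library gave 27 to 30, 33 to 36, 30 to 34 and 26 to 28. The 40 came from the fit of all 9 groups, in which 63 members were tested. For early 2-cell against late 1-cell in uninjected embryos the count of 0 became 2 with voom weights and 2 in a fit of the compared groups, and 0 to 0 with a library left out. The other counts of 0 stayed at 0, also without any 1 library. No value of a described gene changed sign where called. The interaction lost Foxc2, Foxf1, Sox11 and Zic4 on the deposited scale, with a pseudocount of 0.1 CPM or with voom weights, Sox10 with voom weights, and Sox2 and Sox11 against uninjected embryos. In uninjected embryos the early to late 2-cell rise of Sox10 was lost without late 2-cell library 4 or 5 (0.57 without library 5) and with voom weights, and that of Foxc2 without late library 1 or 7. The falls of Foxc1 and Sox8 were lost with library totals (-0.49 and -0.95), for Foxc1 also without early library 5 or late library 3, and for Sox8 without early or late library 6. In Duxbl embryos the rise of Zic2 (0.68) was lost in 11 of 16 settings, among them voom weights, no filter and leaving out late library 1 (0.12). The causes of these losses were not tested. Scaling moved the median of all genes at late 2-cell from -0.05 to -0.26 (library totals), -0.18 (deposited scale) and -0.15 (within the stage). With the library number as a block the 4 counts were 27, 34, 31 and 27. Zic1 at late 2-cell (0.79) and the rise of Zic2 in Duxbl embryos then lost their calls, and Foxp1 in Duxbl embryos and the interaction of Sox13 gained one. Same-numbered libraries of a stage had a median correlation of 0.202, over 0.1 in 30 of 46 pairs. For differently numbered libraries of a stage it was -0.031, over 0.1 in 46 of 230 pairs. Of 50 libraries 30 correlated best with their own number.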
